A study of Mus musculus with 2 samples.

Results

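Mt1, Mt2, Mtf1 and Slc30a1 are the 4 metallothionein, zinc sensor and zinc exporter genes described here, of 31053 genes in the count matrices. They were chosen by symbol, with the ratios of Mt1 and Mt2 between the libraries already known, so these ratios are descriptions and support nothing. Metallothioneins are small cysteine-rich proteins that bind zinc and copper in the cytosol, and Mt1 and Mt2 are their widely expressed members. Mtf1 encodes the zinc-sensing transcription factor that binds metal response elements in the promoters of its targets, among them the metallothionein genes and Slc30a1. Slc30a1 encodes ZnT1, which moves zinc out of the cell across the plasma membrane. Metallothionein transcripts are also known to respond to glucocorticoids and to oxidants.

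The 4 genes were measured in 2 single-cell RNA-seq libraries of mouse leukemia cells, 1 per group. Every cell of both groups carried AML1-ETO9a (AE9a), a shortened fusion protein that drives acute myeloid leukemia, along with GFP, floxed Usp18 and UBCER-Cre, a tamoxifen-inducible recombinase driven by the ubiquitin C promoter and so not limited to 1 cell type. The leukemias came from transduced fetal liver cells and were grown in C57BL/6 recipients. Mice were 8 to 12 weeks old. Sick recipients received 2 injections of oil or tamoxifen, and GFP+ Lin- c-Kit+ spleen cells of 3 mice per group were pooled 3 days after the first injection. The labels disagree on the alleles: the genotype label gives Usp18f/f for oil and Usp18delta/delta for tamoxifen, whereas the treatment protocol gives Usp18+/f cells and heterozygous depletion. Tamoxifen itself and the deletion cannot be told apart in this pair of libraries, because no library of tamoxifen-treated cells without the floxed allele was analysed here. Each pool is 1 sample, so there is no replicate check, no test was run, and every difference is one between 2 libraries.

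Kept were barcodes with no fewer than 500 detected genes and no more than 10% mitochondrial UMIs, that is 6838 of 7774 in the oil-labelled library and 6472 of 7311 in the tamoxifen-labelled library. A UMI marks 1 captured transcript molecule, and the kept cells held 66045700 and 60661486 UMIs with medians of 8622.5 and 8209.5 per cell. The libraries shared 14 barcodes. Usp18, the targeted gene, was at 371 and 933 UMIs, and its log2 ratio of 1.45 (1.28 to 1.63) favored the tamoxifen-labelled library. The count was thus not lower under the tamoxifen label, but 3′ reads cannot tell whether an upstream exon was cut out. It does not settle whether the label is right, and the libraries are therefore named by their labels throughout. The 8 markers of leukemic progenitors summed to 1702 and 1707 UMIs per 1000000 UMIs of the library (CPM), of which Runx1 alone gave 805 and 796 CPM. Cebpa was at 0, and Ptprc had only 12 UMIs over both libraries, at 0.136 and 0.0495 CPM. The 9 mast cell or basophil markers summed to 2724 and 2560 CPM and the 9 erythroid markers to 6291 and 7935 CPM. Among the mast cell or basophil markers, Mcpt8 was at 3.23 and 1.34 CPM and Tpsb2 at 0.485 and 0.0495 CPM. The 9 granulocyte markers summed to 0.318 and 0.280 CPM, with Ly6g, S100a8, Ltf, Mmp8, Retnlg and Ngp at 0. Monocyte or macrophage, T or NK cell, B or plasma cell and megakaryocyte markers summed to 0.346 to 10.3 CPM.

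Mt1 (ENSMUSG00000031765) and Mt2 (ENSMUSG00000031762) are protein-coding neighbors on the plus strand of chromosome 8 in GRCm38, the assembly that mm10 names. Mt2 lies at 94172664 to 94173568 and Mt1 at 94179082 to 94180327, with 5513 bases between them. The longest exact stretch shared by a transcript of each is 20 bases. Mtf1 (ENSMUSG00000028890) lies on chromosome 4 at 124802104 to 124849800 and Slc30a1 (ENSMUSG00000037434) on chromosome 1 at 191906767 to 191913247, both on the plus strand. RefSeq promoter sequences of GRCm38.p6, covering 250 bases before to 50 bases after the annotated start, were found for all 4 members. The 3 that hold a metal response element core are printed to show where these letters lie, 5′ to 3′ on the plus strand, with each match to TGCACNC or TGCGCNC on either strand in capitals. The windows are chr8:94178839-94179138 for Mt1, chr8:94172368-94172667 for Mt2 and chr1:191906531-191906830 for Slc30a1.
Mt1: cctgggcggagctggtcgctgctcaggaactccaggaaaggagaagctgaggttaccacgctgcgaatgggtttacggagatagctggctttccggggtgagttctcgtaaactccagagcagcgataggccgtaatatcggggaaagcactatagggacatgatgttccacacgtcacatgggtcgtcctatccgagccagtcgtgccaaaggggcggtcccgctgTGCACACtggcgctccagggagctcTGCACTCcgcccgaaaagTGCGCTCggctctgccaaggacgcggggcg
Mt2: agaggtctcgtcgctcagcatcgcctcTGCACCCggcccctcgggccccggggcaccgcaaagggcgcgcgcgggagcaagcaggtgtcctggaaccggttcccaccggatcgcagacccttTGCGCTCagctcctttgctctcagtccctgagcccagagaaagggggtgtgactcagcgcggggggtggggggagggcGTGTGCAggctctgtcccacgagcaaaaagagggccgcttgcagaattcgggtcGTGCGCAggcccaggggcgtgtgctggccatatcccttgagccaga
Slc30a1: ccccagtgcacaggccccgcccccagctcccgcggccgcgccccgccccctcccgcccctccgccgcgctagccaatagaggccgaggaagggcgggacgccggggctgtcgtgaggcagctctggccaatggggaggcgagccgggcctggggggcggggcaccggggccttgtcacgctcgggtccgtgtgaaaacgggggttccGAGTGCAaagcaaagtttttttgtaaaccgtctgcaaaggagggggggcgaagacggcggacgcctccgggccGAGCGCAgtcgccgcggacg

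The Mt1 window held 3 matches, all on the plus strand, which begin at -23, 3 and 21 when the start site is counted as 1 and the base before it as -1. The Mt2 window held 4 matches, at -223 and -128 on the plus strand and at -50 and 5 on the minus strand. The Slc30a1 window held 2, at -43 and 31 on the minus strand, and the Mtf1 window held 0. Both spellings differ at a fixed base, so no match was counted under both. Among 32817 RefSeq promoters of 26994 genes, 25.7% held at least 1 match, 7.12% at least 2, 1.97% at least 3 and 0.518% at least 4. The core of the interferon-stimulated response element was in none of the 4 windows on either strand and in 3.43% of all promoters. Each window was set by a RefSeq start, which differs from the gene start given above, and the starts of other transcripts were not examined. A match describes letters in the window and does not show that a factor binds there.

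Both metallothionein genes were higher in the tamoxifen-labelled library, whereas the zinc sensor and the zinc exporter differed little. Mt1 had 46618 UMIs in the oil-labelled library, or 706 CPM (699 to 712), and 75459 UMIs in the tamoxifen-labelled library, or 1244 CPM (1235 to 1253). Its log2 ratio of tamoxifen over oil was 0.82 (0.80 to 0.83), a 1.76-fold difference. For Mt2 26631 and 45414 UMIs were counted, which gives 403 CPM (398 to 408) and 749 CPM (742 to 756). The log2 ratio of Mt2 was 0.89 (0.87 to 0.91), a 1.86-fold difference. All intervals given here are at 95% and cover counting error only, not the spread between animals or libraries.

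The 1745 and 1439 UMIs of Mtf1 correspond to 26.4 CPM (25.2 to 27.7) and 23.7 CPM (22.5 to 25.0), a log2 ratio of -0.16 (-0.26 to -0.054). The 358 and 345 UMIs of Slc30a1 correspond to 5.42 CPM (4.87 to 6.01) and 5.69 CPM (5.10 to 6.32). Its log2 ratio was 0.069 (-0.15 to 0.29), so no difference was detectable at this depth. In the cells left by a stricter filter, 1000 genes or more and 5% mitochondrial UMIs or fewer, Slc30a1 had 24 UMIs in 673 cells and 47 UMIs in 771 cells, and its log2 ratio was 0.86 (0.13 to 1.64).

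These 4 ratios were read against the 10527 genes that reached 100 UMIs over both libraries, whose median log2 ratio was -0.063. A ratio of at least 1.5-fold in favor of tamoxifen was found for 2.09% of these genes and a ratio of at least 1.5-fold in favor of oil for 1.27%. Of the members, 2 of 4 were past 1.5-fold higher and 0 of 4 past 1.5-fold lower. Counted from the highest ratio, Mt2 ranked 68, Mt1 ranked 82, Slc30a1 ranked 2859 and Mtf1 ranked 7118. Since Mt1 and Mt2 were chosen with these ratios known, nothing further is read from their ranks.

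**Figure D1:**
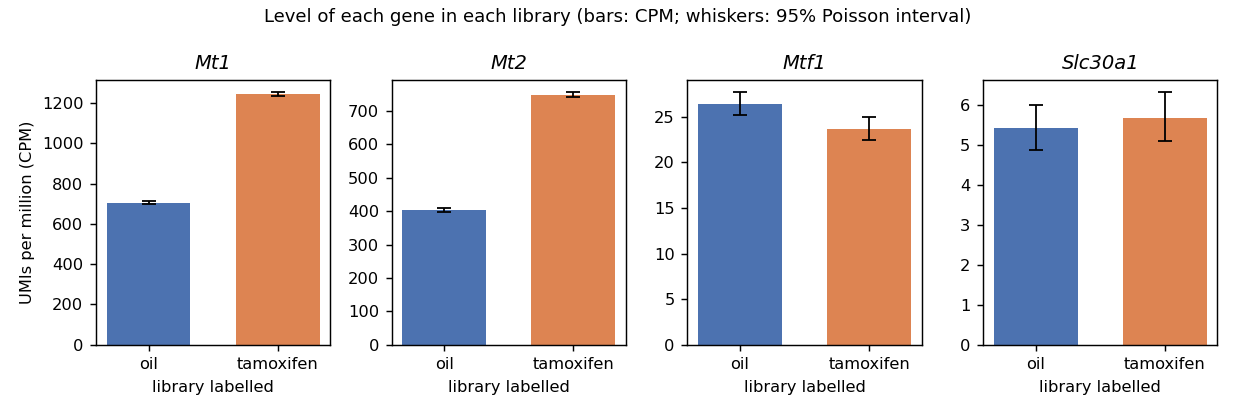
Level of each member in CPM (UMIs per 1000000 UMIs of the library, summed over kept cells) in the oil-labelled library and the tamoxifen-labelled library, with 1 library per group and whiskers for the exact Poisson 95% interval, which covers counting error only. Mt1 stood at 706 and 1244 CPM and Mt2 at 403 and 749 CPM, whereas Mtf1 stood at 26.4 and 23.7 CPM and Slc30a1 at 5.42 and 5.69 CPM.

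The next question was whether the higher level of Mt1 and Mt2 lay in more cells or in more transcripts per cell. Mt1 was found in most cells of both libraries, in 6409 cells or 93.7% (93.1 to 94.3) of the oil-labelled library and in 6332 cells or 97.8% (97.5 to 98.2) of the tamoxifen-labelled library. Mt2 was found in 86.8% (86.0 to 87.6) and 93.3% (92.7 to 93.9). Mtf1 was found in 21.0% (20.1 to 22.0) and 18.7% (17.8 to 19.7), and Slc30a1 in 4.99% (4.48 to 5.53) and 5.10% (4.58 to 5.66). Only 1 sorted population was measured, so a cell type that lacks these genes, which would show the share produced by free RNA, was missing.

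Shares of cells with a UMI depend on depth, so they were also given as the mean over all draws of 3000 UMIs per cell. This left out 508 shallower cells of the oil-labelled library and 345 of the tamoxifen-labelled library. At this depth Mt1 was in 81.9% (81.0 to 82.9) and 91.3% (90.5 to 91.9) of cells, a difference of 9.31 percentage points (8.11 to 10.5). Mt2 was in 64.7% (63.5 to 65.9) and 78.9% (77.9 to 80.0), a difference of 14.2 points (12.7 to 15.8). The shares of Mtf1, 7.28% and 6.73%, and of Slc30a1, 1.69% and 1.87%, differed by -0.55 points (-1.46 to 0.36) and 0.178 points (-0.298 to 0.657), which were not detectable differences.

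Among cells with a UMI, the mean at 3000 UMIs was 2.75 and 4.59 UMIs for Mt1 and 2.02 and 3.14 UMIs for Mt2. The log2 ratio of this level in positive cells was 0.74 (0.71 to 0.77) for Mt1 and 0.64 (0.60 to 0.67) for Mt2, beside log2 ratios of the shares of 0.16 and 0.29. The Mt1 share was already 81.9% in the oil-labelled library and had little room to be higher, so this split does not tell more cells from more transcripts in every cell. It also moved with the depth chosen: the difference in the Mt1 share was 13.1 points at 2000 UMIs and 4.76 points at 5000. Mtf1 averaged 1.06 and 1.05 UMIs and Slc30a1 1.01 and 1.02 UMIs per positive cell. A positive cell of either gene mostly held a single UMI, so a level per cell cannot be resolved for them.

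Without thinning, the cells spread widely in Mt1 and Mt2. The median cell with a UMI held 6 Mt1 UMIs in the oil-labelled library and 9 in the tamoxifen-labelled library, and 3 and 5 Mt2 UMIs. The highest cell held 69 and 184 Mt1 UMIs and 37 and 140 Mt2 UMIs. Over 20 Mt1 UMIs were found in 184 cells, or 2.69%, of the oil-labelled library, which held 10.6% of its Mt1 UMIs. Under the tamoxifen label 852 cells, or 13.2%, were over 20 and held 37.7%. At the other end, 429 cells (6.27%) and 140 cells (2.16%) had no Mt1 UMI. For Mt2, 30 cells (0.439%) and 314 cells (4.85%) were over 20 UMIs, and 901 (13.2%) and 433 (6.69%) had none.

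Relative to the mean, Mt1 and Mt2 were also more spread between cells of the tamoxifen-labelled library. The variance of UMIs per cell in excess of counting, divided by the square of the mean, was 0.588 and 0.905 for Mt1 and 0.663 and 0.977 for Mt2, which includes the spread of depth between cells. It was 0.684 and 0.657 for Mtf1 and 0.921 and 0.631 for Slc30a1, without an interval. In the oil-labelled library neither metallothionein was above Mtf1 on this scale. The Slc30a1 value there rests on 15 cells with 2 UMIs and 1 cell with 3 to 5, so it cannot rank the spread of this gene. The 10% of cells with the most Mt1 UMIs held 28.6% and 31.7% of them, and the top 10% for Mt2 held 31.6% and 33.5%. If every cell had had the library's mean level, a UMI of Mt1 would have been found in 96.4% and 99.3% of cells at their own depths, above the 93.7% and 97.8% found. The corresponding shares for Mt2 were 90.7% and 97.5%, those for Mtf1 21.7% and 19.3%, and those for Slc30a1 5.05% and 5.15%, the last 4 close to the shares found.

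**Figure D2:**
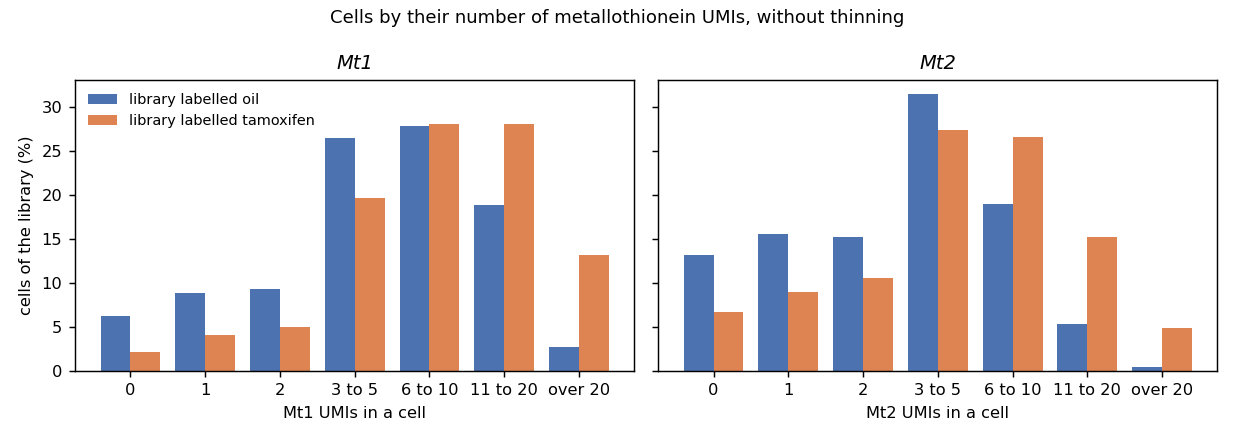
Percent of kept cells (y axis) with each number of UMIs (x axis, classes of UMIs per cell) for Mt1 and Mt2 in the oil-labelled library and the tamoxifen-labelled library, as counted and without thinning. For Mt1 13.2% of cells of the tamoxifen-labelled library and 2.69% of the oil-labelled library were over 20 UMIs, and for Mt2 4.85% and 0.439%.

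Mt2 was higher in cells with more Mt1 UMIs. Mt2 made up 36.4% (36.0 to 36.7) of the UMIs of both genes in the oil-labelled library and 37.6% (37.3 to 37.8) in the tamoxifen-labelled library. Mt2 of the oil-labelled library was at 209 CPM (188 to 231) in cells without an Mt1 UMI and at 506 CPM (497 to 515) in cells with over 10. In its counterpart labelled tamoxifen it was at 258 CPM (218 to 303) and 954 CPM (943 to 965). Between these ends, from 1 to 10 Mt1 UMIs, Mt2 ran from 261 to 389.6 CPM and from 320.5 to 576 CPM, higher in each class than in the one before it. The median depth of a cell ran with the class as well, from 3395 to 14515 UMIs and from 3627.5 to 11603 UMIs.

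Within 4 bins of cells by total UMIs, Mt2 was also higher in cells with an Mt1 UMI. The log2 ratio of its level in cells with over cells without was 1.10 (0.90 to 1.32), 1.54 (1.26 to 1.83), 1.37 (0.93 to 1.85) and 1.69 (0.81 to 2.75) from the shallowest to the deepest bin of the oil-labelled library. These bins held 302, 95, 26 and 6 cells without Mt1, and the last value rests on 10 Mt2 UMIs in them. The ratio was 1.82 (1.51 to 2.16), 2.12 (1.69 to 2.58) and 1.84 (1.24 to 2.51) in the first 3 bins of the tamoxifen-labelled library, with 96, 34 and 10 cells without Mt1, and its deepest bin had 0 such cells. Depth was not held in the shallowest bins, where the median was 3744.5 UMIs in cells with Mt1 and 2341 in cells without in the oil-labelled library, and 3903 and 2701.5 in the other. Across cells, Pearson's r of Mt1 with Mt2 on the scale of log(1 + UMIs per 10000) was 0.43 and 0.62. These are descriptions over 6838 and 6472 cells that share a library, and no p-value applies to them.

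Mtf1 and Slc30a1 did not follow the metallothioneins in this way. The correlation of Mtf1 with Mt1 was 0.025 and 0.030 and with Mt2 -0.0022 and 0.027. In cells without an Mt1 UMI and in cells with over 10, Mtf1 was at 22.0 CPM (15.5 to 30.1) and 26.7 CPM (24.6 to 29.0) in the oil-labelled library. It was at 21.1 CPM (10.9 to 36.8) and 25.3 CPM (23.6 to 27.1) in the tamoxifen-labelled library. In the classes between these ends, Mtf1 of the tamoxifen-labelled library was at 17.7, 17.1, 21.3 and 23.1 CPM. In cells without an Mt1 UMI and in cells with over 10, Slc30a1 was at 6.36 CPM (3.17 to 11.4) and 5.48 CPM (4.54 to 6.55) in the oil-labelled library. In the 140 cells without Mt1 of the tamoxifen-labelled library it had 11 UMIs, or 19.3 CPM (9.64 to 34.6), beside 5.64 CPM (4.85 to 6.52) in cells with over 10. These 140 cells had a median depth of 3627.5 UMIs, beside 11603 in cells with over 10. Slc30a1 of this library was at 9.70 CPM in the shallowest bin of total UMIs and 4.86 CPM in the deepest. Its log2 ratio in cells with over without Mt1 was -1.39 (-2.61 to 0.12) in the shallowest bin. The next bins gave -0.77 (-2.69 to 2.31) and -2.40 (-3.99 to -0.092), the latter from 3 UMIs in 10 cells without Mt1.

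**Figure D3:**
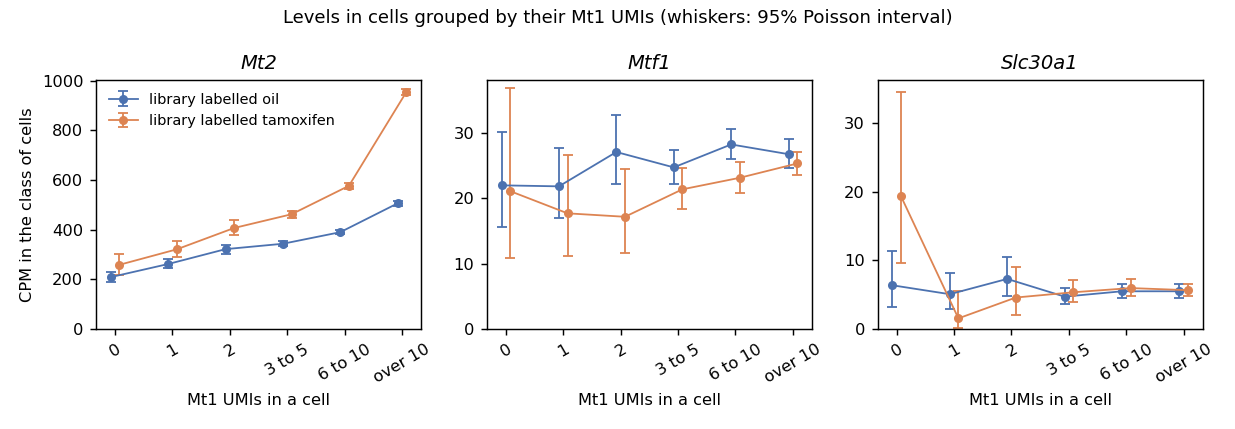
Level of Mt2, Mtf1 and Slc30a1 in CPM (y axis) in cells grouped by their number of Mt1 UMIs (x axis) in the oil-labelled library and the tamoxifen-labelled library, with whiskers for the exact Poisson 95% interval. Mt2 ran from 209 to 506 CPM and from 258 to 954 CPM with the Mt1 class. Neither Mtf1 nor Slc30a1 was higher in each class than in the one before it. Mtf1 of the tamoxifen-labelled library was at 21.1 CPM without an Mt1 UMI, 17.1 CPM at 2 and 25.3 CPM at over 10.

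Among 8423 genes with a UMI in at least 5% of cells of both libraries, the genes whose pattern across cells was most like that of Mt1 in the oil-labelled library were Mt2, Ftl1 (r = 0.22), mt-Co2 (0.16), Fau (0.14) and Gm15915 (0.14). In the tamoxifen-labelled library the same 5 were at 0.62, 0.25, 0.076, 0.12 and 0.12. For Mt2 they were Mt1, Ftl1 (0.19), Arhgdib (0.16), mt-Co2 (0.15) and Hba-a1 (0.15), with 0.62, 0.19, 0.066, 0.10 and 0.21 in the tamoxifen-labelled library. Ftl1 encodes the light chain of ferritin, the iron store, and Hba-a1 an alpha globin chain. Apart from the pair itself all of these correlations were weak, and in sparse counts a weak correlation is no finding.

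To describe where in the population the members lay, cells of each library were ranked by the share of their UMIs in a list of genes and divided into 4 bins of equal size. Most of these scores ran with depth: the bins lowest and highest in glucocorticoid response genes had median depths of 10101.5 and 4736 UMIs in the oil-labelled library and 11189.5 and 4814.5 in the tamoxifen-labelled library. The ranking was therefore done within each of 4 bins of total UMIs, with the same share of cells taken from each. Like median depths of top and bottom cells follow from this by construction. Depth inside a bin was not held, so the values called depth-held here, small ones above all, can still run with depth. Ranking within bins turned the direction of some values, those of Mt2 with G2 and mitosis genes and of Mt1 with mast cell protease genes among them. Only depth-held values are given below unless stated.

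Of the 9 scores, the globin share separated the metallothioneins most. Mt1 was at 609 CPM in the bottom and 829 CPM in the top bin for globins in the oil-labelled library, a log2 ratio of 0.45 (0.41 to 0.48). Under the tamoxifen label it was at 1008 and 1592 CPM, a log2 ratio of 0.66 (0.63 to 0.69). Mt2 was at 329.8 and 498 CPM (0.59, 0.54 to 0.64) and at 557 and 1019 CPM (0.87, 0.83 to 0.91). Mtf1 was also higher in the globin-rich bin, at 22.2 and 30.7 CPM (0.46, 0.27 to 0.66) and at 20.4 and 28.9 CPM (0.51, 0.29 to 0.72), whereas the intervals of Slc30a1 included 0 in both libraries.

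The globins themselves were among the erythroid markers that summed to 6291 and 7935 CPM. Within the globin-poor bin Mt1 and Mt2 were still higher in the tamoxifen-labelled library, by log2 ratios of 0.73 (0.69 to 0.76) and 0.76 (0.71 to 0.80), and within the globin-rich bin by 0.94 (0.91 to 0.97) and 1.03 (0.99 to 1.07). Whether globin transcripts in a cell came from that cell or from free RNA was not tested.

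The score of type I interferon response genes, a list that holds Usp18, gave different values in the 2 libraries. In the oil-labelled library Mt1 was at 707 CPM in the bottom and 676 CPM in the top bin (-0.064, -0.10 to -0.026) and Mt2 at 391 and 405 CPM (0.051, 0.00075 to 0.10). In the tamoxifen-labelled library Mt1 was at 1088 and 1489 CPM (0.45, 0.42 to 0.48) and Mt2 at 681 and 859 CPM (0.34, 0.30 to 0.37). The log2 ratio between the libraries was 0.62 (0.59 to 0.66) in the bottom and 1.14 (1.10 to 1.17) in the top bin for Mt1, and 0.80 (0.75 to 0.84) and 1.08 (1.04 to 1.13) for Mt2. Mtf1 and Slc30a1 had intervals that included 0 between these bins in both libraries. The bins are ranges of a score within each library and not cell types, and with 1 library per group the difference between the libraries in this pattern was not tested.

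Slc30a1 was higher in cells rich in glucocorticoid response genes, a list of 10 genes without the members. It had 72 UMIs in the bottom and 101 in the top bin of the oil-labelled library, or 4.31 and 6.31 CPM, a log2 ratio of 0.55 (0.099 to 1.01). Under the tamoxifen label it had 63 and 112 UMIs, or 4.04 and 7.67 CPM, a log2 ratio of 0.92 (0.47 to 1.39). Without holding depth the log2 ratios were 1.25 and 1.19, and Slc30a1 was also higher in shallow cells, by log2 ratios of -0.58 (-1.06 to -0.065) and -0.996 (-1.45 to -0.53) for the deepest over the shallowest bin. Mt1 differed less between these bins, by 0.047 (0.010 to 0.085) and 0.21 (0.18 to 0.24), as did Mt2, by 0.095 (0.046 to 0.14) and 0.23 (0.19 to 0.27).

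The members differed in how they lay along the cell cycle scores. Mt2 was lower in the bin rich in S phase genes, by -0.24 and -0.22 on the log2 scale, and Mt1 by -0.062 and -0.17. With G2 and mitosis genes Mt2 was higher, by 0.10 (0.050 to 0.15) and 0.28 (0.24 to 0.32), whereas Mt1 was at -0.13 (-0.17 to -0.089) and 0.024 (-0.0054 to 0.053). Mtf1 was higher in the S phase bin of the oil-labelled library, at 21.6 and 29.4 CPM (0.45, 0.24 to 0.65), and in the tamoxifen-labelled library the value was 0.12 (-0.094 to 0.34). Slc30a1 was lower with both S phase genes (-0.65, -1.12 to -0.18) and G2 and mitosis genes (-0.65, -1.11 to -0.19) in the tamoxifen-labelled library, whereas both intervals included 0 in the oil-labelled library. Mtf1 was lower in the bin rich in mast cell proteases in both libraries, by -0.50 (-0.69 to -0.30) and -0.34 (-0.56 to -0.12).

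The difference between the libraries in Mt1 and Mt2 was found in every range of cells examined. In bins by each of 10 scores taken without holding depth, total UMIs included, the interval of the log2 ratio of Mt1 between the libraries lay above 0 in 4 of 4 bins of every score, with values from 0.57 to 1.17. For Mt2 the values ran from 0.76 to 1.11. Every score divides the same cells of the same 2 libraries, and Mt1 and Mt2 were chosen with their ratios known. The bins are therefore no independent support. By total UMIs, Mt1 was at 928 and 1955 CPM in the shallowest bin (1.08) and at 658 and 1022 CPM in the deepest (0.63).

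**Figure D4:**
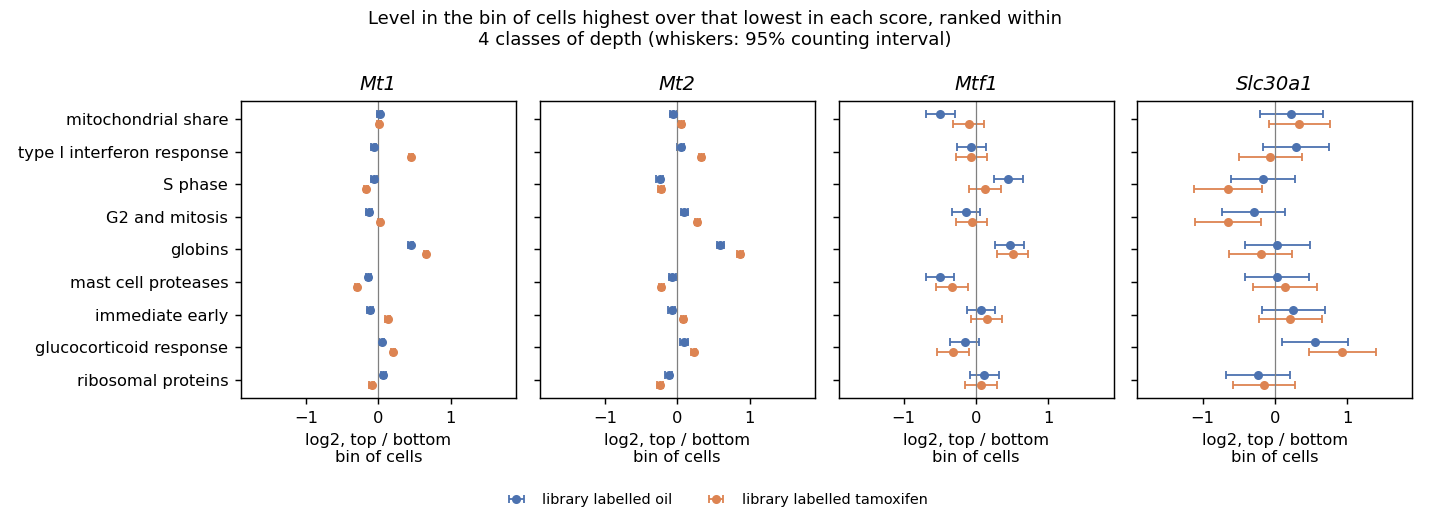
Log2 ratio of the level of each member in the bin of cells highest over the bin lowest in each of 9 scores (y axis), with cells ranked within 4 classes of depth, in the oil-labelled library and the tamoxifen-labelled library, and whiskers for the 95% counting interval. Mt1, Mt2 and Mtf1 lay right of 0 for globins in both libraries, Mt1 for interferon genes lay at -0.064 and 0.45, and Slc30a1 for glucocorticoid response genes at 0.55 and 0.92.

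Other genes of metal handling were compared to see whether they moved with Mt1 and Mt2. Of the 4 listed metallothioneins only Mt1 and Mt2 had at least 100 UMIs. Mt3, known mainly from brain, had 10 and 6 UMIs and Mt4, known from squamous epithelium, had 0 in both libraries. The Slc30 family moves zinc out of the cytosol, and 7 of its 10 genes could be measured, with a median log2 ratio of -0.099 beside -0.063 over all genes. None of these 7 was past 1.5-fold. Slc30a7 (0.098, -0.011 to 0.21) and Slc30a1 were highest, and Slc30a6 (-0.23, -0.42 to -0.048) and Slc30a2 (-0.22, -0.34 to -0.097) lowest. The intervals of 3 of the 7 lay below 0 and of 0 above it. Over all 10527 genes 39.8% of intervals lay below 0 and 19.3% above, and the interval counts of every list are to be read beside these shares, since abundant genes have narrow intervals.

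The Slc39 family brings zinc into the cytosol. Of its 14 genes 10 could be measured, with a median of -0.057, and none was past 1.5-fold. Slc39a13 (0.13, -0.065 to 0.32) and Slc39a1 (0.12, 0.026 to 0.22) were highest, and Slc39a9 (-0.19, -0.32 to -0.053) and Slc39a4 (-0.17, -0.27 to -0.077) lowest. The zinc transporters as listed thus stayed near the median of all genes. Slc30a3, Slc30a8 and Slc39a12 were at 0 in both libraries.

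Copper handling genes spread in both directions. Of 11 genes 10 could be measured, with a median of -0.11, and none was past 1.5-fold. The intervals of 4 lay above 0 and of 5 below. Cox17, which carries copper to cytochrome c oxidase, was at 140.2 and 209 CPM (0.58, 0.54 to 0.62), and Slc31a2, a copper transporter relative, at 2.39 and 3.54 CPM (0.57, 0.26 to 0.87). Sco2, another copper chaperone of cytochrome c oxidase, was lowest at -0.34 (-0.44 to -0.24), followed by Commd1 at -0.32 (-0.37 to -0.28).

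**Figure D5:**
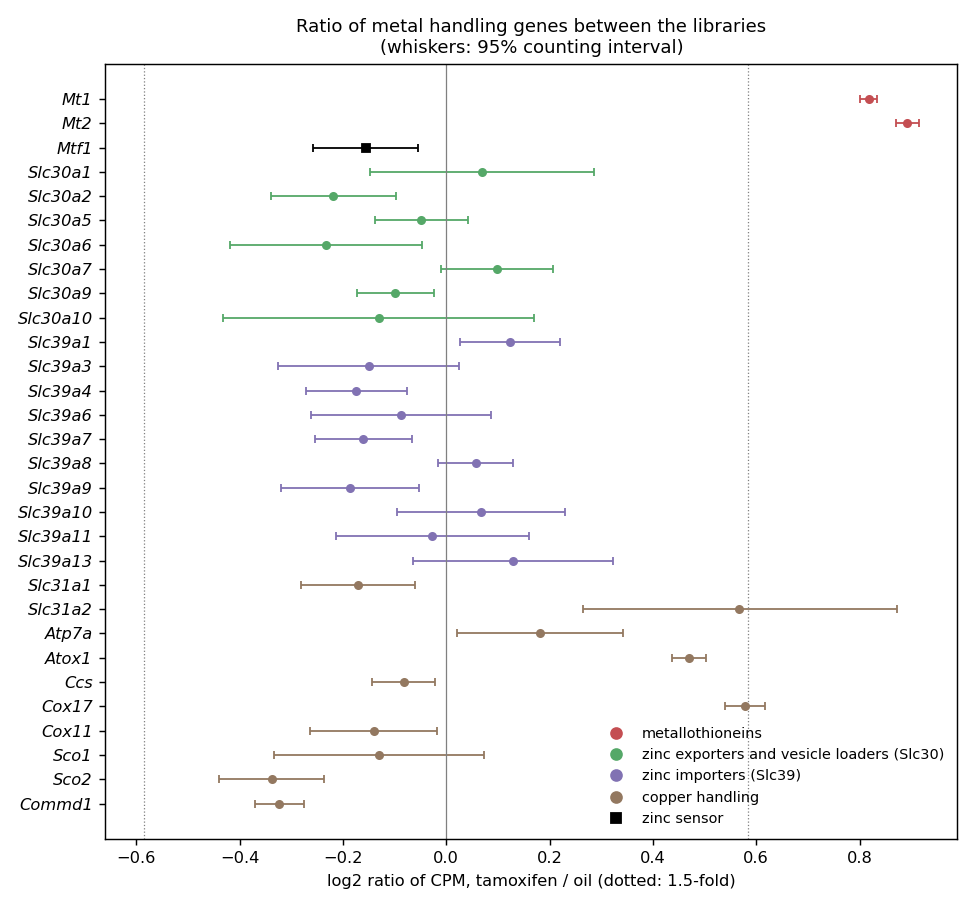
Log2 ratio of the tamoxifen-labelled over the oil-labelled library (x axis) for Mtf1 and each measured metallothionein, Slc30, Slc39 and copper handling gene, with whiskers for the 95% counting interval and dotted lines at 1.5-fold. Mt1 and Mt2 stood at 0.82 and 0.89, right of the dotted line, and Cox17 at 0.58 lay next to it, whereas no measured Slc30 or Slc39 gene was past 1.5-fold.

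Lists of genes that share known inducers with the metallothioneins differed in direction. Of 15 targets of NRF2, the factor that responds to oxidants, 13 could be measured, with a median of -0.15 and the intervals of 11 below 0 and 1 above. Sqstm1 (0.19) and Hmox1 (0.016, -0.31 to 0.34) were highest and Txnrd1 and Gsr (both -0.34) lowest. Of 11 heat shock genes 10 could be measured, with a median of -0.32 and all 10 intervals below 0, from Hspe1 (-0.11) and Dnajb1 (-0.14) to Hspd1 (-0.46) and Hspa1a (-0.53). None of these genes was past 1.5-fold in either list.

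Of 10 glucocorticoid response genes 9 could be measured, with a median of 0.52. Past 1.5-fold were 4 higher and 1 lower, beside 2.09% and 1.27% of all 10527 genes. The intervals of 7 lay above 0 and of 1 below. The highest were Ddit4, at 21.3 and 38.9 CPM (0.87, 0.77 to 0.96), and Fkbp5, at 0.681 and 1.19 CPM (0.80, 0.24 to 1.37). The lowest were Dusp1, at 31.1 and 14.7 CPM (-1.09, -1.20 to -0.97), and Cdkn1c (-0.27, -0.83 to 0.28). Ddit4 is also known to respond to other stresses, and Dusp1 is an immediate early gene as well. This list was drawn up with earlier results of these libraries known, so its direction is not independent evidence. Glucocorticoid exposure of the mice was not measured.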

How the data were processed

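The values deposited by the authors are UMI counts for each gene in each cell, whole numbers without normalization, made from 3′ libraries of the Chromium V3 kit by mapping to mm10 with Cell Ranger (3.0.2 in the file headers), and the submitters' processing notes also name Seurat. Reads from the 3′ end count a molecule once whatever its length, and free RNA or reads shared by similar genes can enter a count. Barcodes were taken as deposited and each was treated as 1 cell of the pool, since no label maps cells to mice. Both titles carry the same batch number.

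Members and lists were chosen with earlier results of these data known. Counts were summed over kept cells and divided by the library total (CPM), with exact Poisson intervals, exact conditional binomial intervals for ratios and exact Clopper-Pearson intervals for shares. The share expected over all draws at 3000 UMIs was computed without a random draw, and its intervals treat cells as independent. The ranking of cells within bins of depth was chosen after seeing the data. The named genes are Usp18, the members, the 2 highest and 2 lowest ratios of each list, and the 5 genes with the highest correlation with Mt1 and with Mt2 in the oil-labelled library. No doublet caller was run, and 1 alternative dropped the 6% of cells with the most UMIs. The ratio step was tested on simulated counts, and the thinning step against random draws from the Mt2 counts of the oil-labelled library. Gene positions came from GENCODE M21 and promoters from RefSeq.

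The alternatives changed the cell filter, the scaling (TMM in edgeR 4.0.16, size factors of DESeq2 1.42.0), the library total, the weight of each cell, the minimum count and the thinning depth. Computations ran in Python 3.11.15 (scipy 1.17.1, numpy 2.4.6, matplotlib 3.10.9, pandas 2.3.3) and R 4.3.3.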

Additional observations from a re-analysis of the deposited data

Results flagged for a closer look

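The barcodes that failed the cell filter, 936 of the oil-labelled library and 839 of the tamoxifen-labelled library, entered no main value of the report and were added back only under other cell filters, and Mt1 and Mt2 were higher there in the tamoxifen-labelled library as well. Mt1 had 3126 and 6607 UMIs in them, or 745 and 1513 CPM, a log2 ratio of 1.02 (0.96 to 1.08). Mt2 had 1824 and 3912 UMIs, or 435 and 896 CPM, a log2 ratio of 1.04 (0.96 to 1.12). The log2 ratios of Mtf1 and Slc30a1 in the same barcodes were 0.066 (-0.34 to 0.47) and 0.25, and what these barcodes hold was not tested.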

How the results depend on the processing

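Of 205 values recomputed under other settings, 153 moved by less than their counting interval, or for counts of genes by less than 1.5 times, and 52 moved by more. For the median of a list, the medians of its genes' lower and upper bounds stood in for the interval. They are not a counting interval of the median itself. The sign changed for 5 values, all of results whose interval included 0: the Slc30 median was 0.013 with the strictest cell filter, the Slc39 median 0.023 when the total left out mitochondrial and ribosomal protein genes, and the log2 ratio of Slc30a1 level in positive cells -0.0065, -0.00038 and -0.0061 at 2000 UMIs, at 5000 UMIs and without thinning. Log2 ratios under settings that moved them were as follows. With the filter of 1000 genes or more and 5% mitochondrial UMIs or fewer they were 1.74 for Usp18, 1.08 for Mt1, 0.96 for Mt2, -0.32 for Mtf1 and 0.86 for Slc30a1, with list medians of 1.02 for metallothioneins, -0.23 for NRF2 targets and 0.67 for glucocorticoid response genes, and 295 genes at least 1.5-fold lower. Under this filter the differences in share at 3000 UMIs were 10.6 points for Mt1, 11.8 for Mt2 and 1.55 for Slc30a1, and the log2 ratios of level in positive cells 0.95 for Mt1 and 0.77 for Mt2. Without the 6% of cells with the most UMIs, Mt1 was 0.85, Mt2 0.92, the metallothionein median 0.89 and the heat shock median -0.39. TMM scaling gave 0.86, 0.94, 0.90 and an NRF2 median of -0.10, and median-ratio scaling 0.86, 0.93, 0.89 and -0.11. Totals that omit mitochondrial and ribosomal protein genes gave 0.90, 0.97, 0.94 and -0.065, with a glucocorticoid median of 0.60 and 86 genes lower. Equal weight for every cell gave 0.92, 0.94 and 0.93, with 231 genes lower. With a gene minimum of 20 UMIs 572 genes were higher and 370.0 lower, and with 500 these were 105 and 73. Thinned to 2000 UMIs, the share differences were 13.1 points for Mt1 and 16.2 for Mt2 and the levels in positive cells 0.67 and 0.55. At 5000 UMIs they were 4.76 and 10.2 points and 0.77 and 0.71. Without thinning the share differences were 4.11 points for Mt1, 6.49 for Mt2 and -2.32 for Mtf1, and the level of Mt2 was 0.75. The cause was not tested. An alternative added after seeing the data, without barcodes found in both libraries, moved none of the 5 single-gene ratios it was run for.

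No paired analysis was possible because there is 1 library per group. No replicate was left out for the same reason. The intervals limit counting error only, which is small for Mt1 and Mt2 and wide for Slc30a1.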
